A study of Homo sapiens with 4 samples.

Results

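Of the 2637 RNAs in a table of RNA contacts with enhancers and promoters, 8 come from genes used by megakaryocytes, the cells that shed platelets, for adhesion, contraction and transcription. They were taken by symbol: VCL, MYH9, MYH10, ITGB1, FYB1, CD36, ANGPT1 and ETV6. Together they held 147 of the table's 115357 connections, and as a second view the elements whose nearest gene is 1 of the 8 were taken, 35 of 33948. The contacts were measured by GRID-seq, which ligates an RNA through a linker to the DNA beside it in fixed nuclei. All cells were K562, an established human leukaemia line, cultured and fixed alike, either with wild-type RUNX1 (WT) or with RUNX1 R320*, a form of this transcription factor cut short by a stop codon. Fixation used DSG (2 mM for 45 minutes) and then formaldehyde (3% for 10 minutes) in all of them. Each genotype had 2 libraries, but the deposited table gives 1 contact score per genotype, read here as pooled from both. No value below therefore has a replicate error, and no difference between genotypes could be tested. The labels do not say whether the mutant cells were a single clone, nor whether the libraries came from separate cultures.

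A connection here is 1 RNA paired with 1 element, typed as an active enhancer or promoter. Its score is either at least 1.2 or set to 0, and 0 was read as "not listed", since the table holds what passed that minimum in WT, R320* or both. Sequencing depth is unknown, as is the way the score was computed. A listed contact is not an expression level, and in such bulk libraries fewer cells with a contact and less contact per cell cannot be told apart. The 4 libraries gave 82454 connections in WT and 84992 in R320*. As a check of the cell type, 7 of 19 erythroid genes were listed as RNAs, among them the globin HBG2 with 154 and 196 connections, while of 18 megakaryocyte and platelet genes 1 was, the platelet integrin ITGA2B, with 5 and 5. Of 8 lymphoid genes 2 were listed and of 7 non-blood genes 1. The defining platelet genes, such as PF4 and GP9, were not listed in either genotype, so the 8 RNAs are described as RNAs of K562 and not as those of a megakaryocyte.

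RUNX1 is a master regulator of megakaryocytes, and inherited mutations of RUNX1 and of ETV6 both cause low platelet counts with a risk of leukaemia. Adhesion begins with integrins, which bind matrix outside the cell; vinculin, the product of VCL, then ties them to actin. Nonmuscle myosins pull on that actin, and RUNX1 is known to silence MYH10 as megakaryocytes stop dividing and become polyploid.

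The promoters of 4 of the 8 genes lay inside promoter elements that met the gene's own RNA. Their 250 bases before the gene's start are shown because they lie inside elements whose local contacts are described below. A score belongs to the whole element, from 2878 bases long for ETV6 to 9371 for VCL. It does not place the contact within the bases shown. The sequences are from RefSeq (GRCh38.p14, the coordinates of hg38), in the gene's direction, with GC boxes (GGGCGG) and CCAAT boxes (CCAAT) on either strand in capitals; these letters were chosen after the sequences were seen. VCL and MYH10 were listed in both genotypes, ITGB1 and ETV6 in WT only.
VCL, chr10:73997866-73998115, plus strand: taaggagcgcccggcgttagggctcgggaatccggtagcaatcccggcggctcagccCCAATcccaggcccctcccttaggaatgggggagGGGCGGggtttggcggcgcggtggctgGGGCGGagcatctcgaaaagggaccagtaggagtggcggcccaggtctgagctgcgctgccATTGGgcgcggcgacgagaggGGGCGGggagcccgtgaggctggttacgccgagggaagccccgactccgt
MYH10, chr17:8630726-8630975, minus strand: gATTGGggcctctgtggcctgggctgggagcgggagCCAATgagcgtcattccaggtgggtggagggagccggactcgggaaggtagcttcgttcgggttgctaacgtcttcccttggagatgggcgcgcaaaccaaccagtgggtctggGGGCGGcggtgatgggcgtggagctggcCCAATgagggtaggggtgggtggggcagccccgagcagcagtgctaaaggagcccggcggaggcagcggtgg
ITGB1, chr10:32958231-32958480, minus strand: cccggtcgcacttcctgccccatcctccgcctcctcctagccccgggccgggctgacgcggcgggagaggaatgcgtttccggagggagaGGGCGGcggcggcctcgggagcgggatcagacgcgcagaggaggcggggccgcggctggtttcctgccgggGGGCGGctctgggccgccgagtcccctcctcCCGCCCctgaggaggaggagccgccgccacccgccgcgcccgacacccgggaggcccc
ETV6, chr12:11649424-11649673, plus strand: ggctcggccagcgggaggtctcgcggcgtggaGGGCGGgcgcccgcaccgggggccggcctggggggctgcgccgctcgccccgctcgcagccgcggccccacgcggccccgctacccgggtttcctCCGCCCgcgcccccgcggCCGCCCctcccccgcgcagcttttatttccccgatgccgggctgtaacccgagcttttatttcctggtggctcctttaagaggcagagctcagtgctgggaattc
All 4 windows were rich in G and C, from 67.2% in MYH10 to 78.4% in ITGB1, against a median of 58% over all 35116 RefSeq promoter windows. A content of at least 67.2% was found in 27.3% of those. VCL held 3 GC boxes and 2 CCAAT boxes, MYH10 1 and 3, and ITGB1 and ETV6 3 and 0 each. Over all promoters, 42.6% held a GC box and 32.0% a CCAAT box.

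The RUNX core letters (TGTGGT or TGCGGT, either strand) were in none of these 4 windows, which says only that they are not in these 250 bases. They were in 3 of the 14 windows that RefSeq gives for 7 of the genes, against 16.3% of all promoters. All 3 windows lay outside the elements that met the gene's own RNA. A stretch of 30 bases around each match is shown, with the RUNX letters in capitals. Each is named by the position of the first capital relative to the RefSeq start that its window precedes. For MYH9 that is the gene's start given below, while the starts used for FYB1 and CD36 lie inside the gene.
MYH9 at -13, chr22:36387968-36387997, minus strand: cgaggagccgagctgggTGCGGTgaggcgc
FYB1 at -39, chr5:39270671-39270700, minus strand: aaagctggacagACCACAcagctcagaaaa
CD36 at -104, chr7:80638526-80638555, plus strand: ctctggcaacaaACCACAcactgggatctg
CD36 at -39, chr7:80638591-80638620, plus strand: ggggggagggggTGTGGTtgcatatttaaa
The GATA letters (AGATAA or TGATAA, either strand) were also in 3 of the 14 windows, 1 of FYB1 and 2 of CD36, and in 14.6% of all promoters.

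As RNAs, the 8 fell into 4 that both genotypes listed with most contacts in common and 4 that were listed in 1 genotype only. VCL, MYH10, MYH9 and ANGPT1 together made 100 connections in WT and 95 in R320*, and 82 of these were common to both. RNA of ETV6 (25 connections), ITGB1 (5) and FYB1 (2) appeared in WT alone, and that of CD36 (2) in R320* alone. Of all RNAs, 10.4% appeared in WT alone and 8.61% in R320* alone. All 147 connections of the 8 RNAs were on the RNA's own chromosome, 14 of them local, which is also true of 1766 of the 2637 RNAs. Of the 147, 82 (55.8%) were in both genotypes, against 45.2% of all connections and 53% of those on the same chromosome. Over the 4 RNAs listed in both genotypes the share was 72.6% of 113, beside 59.8% for such RNAs in the whole table. Enhancers made up 90 of the 147 (61.2%) and 66.5% of all same-chromosome connections.

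**Figure D1:**
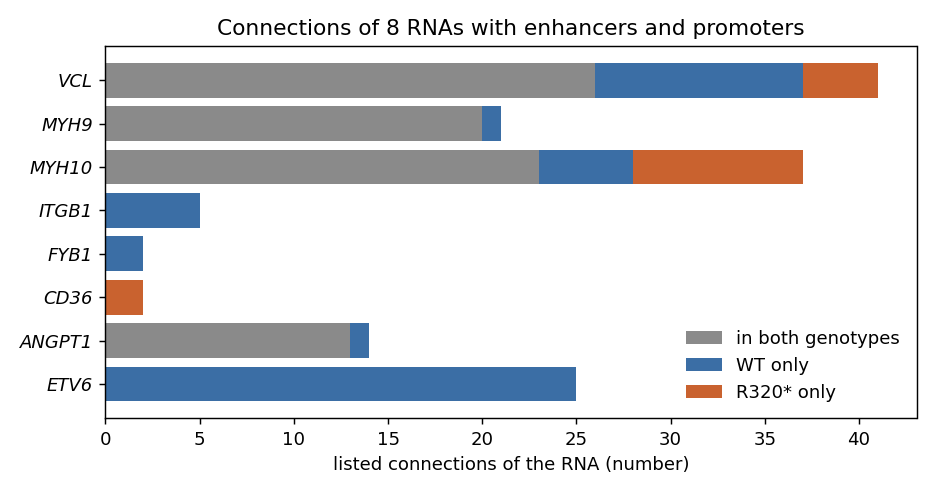
Number of listed connections of each of the 8 RNAs (horizontal axis), split by colour into those in both genotypes, in WT only and in R320* only; 2 libraries per genotype are pooled, so there are no error bars. VCL, MYH9, MYH10 and ANGPT1 have large shared parts (26, 20, 23 and 13), while ETV6, ITGB1, FYB1 and CD36 have none.

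VCL, vinculin (ENSG00000035403.17, chromosome 10, 73998116 to 74121363), had the most connections of the 8: 37 in WT, 30 in R320* and 26 common to both. The share in R320* was 44.8% of all listings (exact Clopper-Pearson interval 32.6 to 57.4%, counting error only, and neighbouring contacts are not independent). RNAs listed in both genotypes with a similar number of connections, from 0.8 to 1.25 times as many, had a median of 51.5%. The ratio of numbers (log2 -0.30) lay inside the range of -0.65 to 0.93 that holds 95% of the 1937 RNAs that both genotypes listed and that averaged 10 or more connections. None of the 4 RNAs reached 2-fold, as 2.17% of those 1937 did upward and 0.929% downward.

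Contacts of VCL RNA with elements around its own start were among its strongest. An enhancer 14.2 kb upstream (73983555 to 73983954) scored 2.71 in WT and 2.77 in R320*. Another one, 17.7 kb upstream (73978986 to 73980403), scored 2.47 and 2.36. An enhancer inside the gene (74007893 to 74014110) scored 2.39 and 2.54, and the promoter element around the sequence shown above (73990903 to 74000273) 2.33 and 2.42. In WT an enhancer near PLAU, 90.7 kb upstream (2.36), and a CAMK2G promoter, 185 kb upstream (2.34), scored above that promoter element. Of the 5 contacts of VCL RNA with elements whose nearest gene is VCL, 3 were higher in R320* and 2 lower, the largest difference downward being at the enhancer 28.1 kb upstream, from 1.84 to 1.51.

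Further upstream, scores of VCL RNA were lower in R320* over a stretch of neighbouring elements. From CAMK2G, a calcium-dependent kinase gene, to PLAU, the gene of the urokinase protease (73810478 to 73920526, 77.6 to 185 kb from VCL), all 8 shared connections were lower in R320*. Their median was 2.19 in WT and 1.98 in R320*, and the differences ran from -0.28 to -0.07 with a median of -0.26. Among all shared same-chromosome connections of RNAs listed in both genotypes, 9.54% were lower by at least 0.25 and 17.4% higher by as much, a size chosen after the values were seen. VCL had 6 lower and 2 higher by that size among 26. At any size, 17 of the 26 were lower and 9 higher, while 59.1% of all shared same-chromosome connections were higher. The stretch from CAMK2G to PLAU was picked out after its values were seen. Its elements are neighbours, so the 8 are not separate observations.

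At the same 8 elements the values of other RNAs were different. ADK RNA, from the adenosine kinase gene 29.9 kb downstream of VCL, met all 8 in both genotypes with a median difference of -0.02, 5 lower and 3 higher. USP54 RNA, from a gene 372 kb upstream of VCL, met 1 of them in WT and 6 in R320*; its shared one scored 1.29 and 2.16. P4HA1 RNA had the opposite order in number, with 6 in WT and 2 in R320*. The elements themselves were in contact with RNA in both genotypes, with a partly different set of RNAs.

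On the far side, VCL RNA met a group of elements 929 to 1122 kb downstream, from DUPD1 to ZNF503-AS1, around the mitochondrial channel gene VDAC2. There it had 10 connections in WT and 4 in R320*. The group was picked out after its values were seen, and its elements are neighbours, not separate observations. The 4 shared ones were mixed, with the largest upward difference of VCL at DUSP13 (1.49 and 1.79 at its promoter, 1.76 and 2.04 at an enhancer). The 6 seen in WT only scored between 1.31 and 1.74.

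The RNAs whose contacted elements were most like those of VCL were KAT6B and ADK, both encoded downstream of it. By the Jaccard index over elements listed in either genotype, KAT6B had 0.43 and ADK 0.34. KAT6B shared 20 elements, 48.8% of those of VCL and 76.9% of its own, and ADK 36, which are 87.8% and 35.3%. Both had more connections in R320* than in WT, at 18 and 23 for KAT6B and 70 and 77 for ADK. All 41 elements of VCL were met by another RNA in WT and in R320*.

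**Figure D2:**
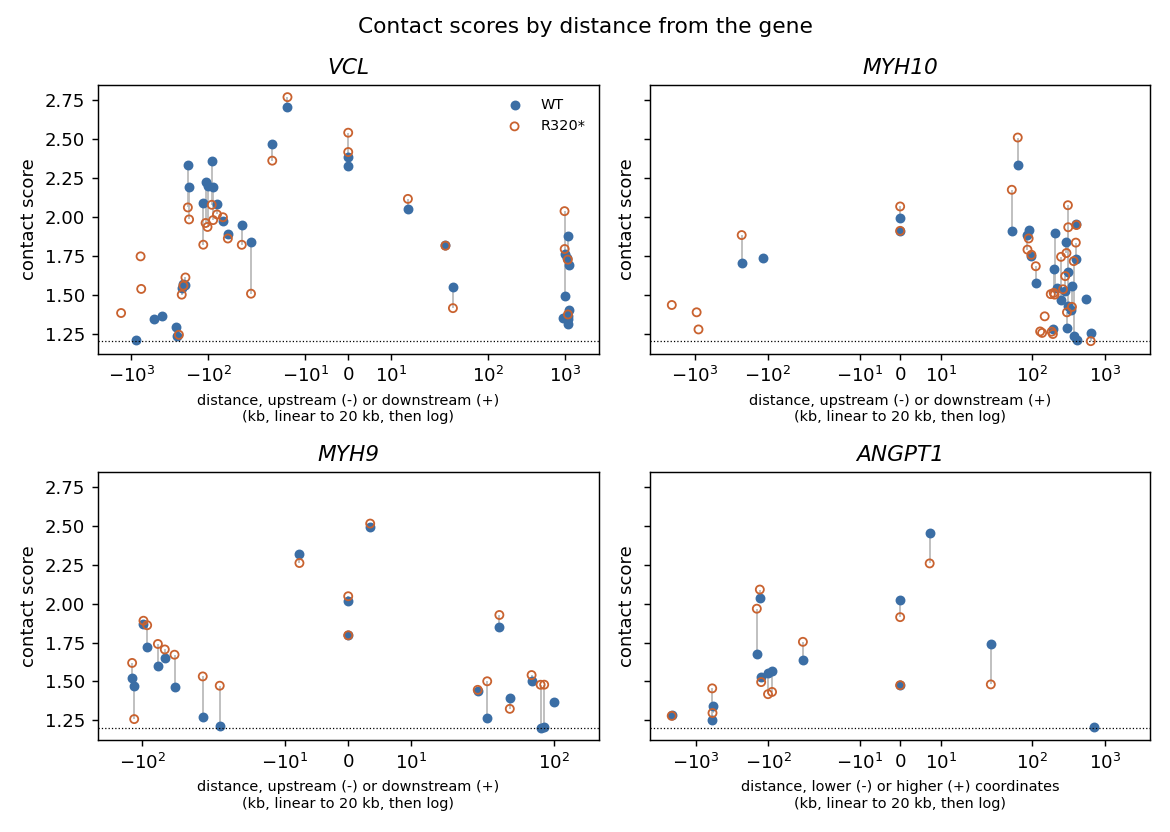
Contact score (vertical axis) against distance from the gene in kb (horizontal, linear near 0 and then logarithmic) for VCL, MYH10, MYH9 and ANGPT1; filled points are WT, open points R320*, a grey line joins the values of 1 connection, and the dotted line is the minimum of 1.2. The highest score of each RNA lies within 63.0 kb of its gene, and the VCL points between 77.6 and 185 kb upstream are all lower in R320*.

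The nonmuscle myosin heavy chains MYH9 (myosin IIA) and MYH10 (myosin IIB) differed in how much of their contact list was shared. MYH9 had 20 of 21 connections in both genotypes, MYH10 23 of 37. RNAs of similar number and listed in both genotypes had a median of 57.7% for the number of MYH9 and 60.0% for that of MYH10, beside 95.2% and 62.2% here. The contacts of MYH9 reached at most 123 kb from the gene and those of MYH10 2065 kb, and shared parts fall with distance in the whole table.

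MYH10 (ENSG00000133026.12, chromosome 17, 8474212 to 8630725) met 28 elements in WT and 32 in R320*. The share in R320* was 53.3% (exact interval 40.0 to 66.3%), against a median of 51.8% for RNAs of similar number listed in both genotypes. Its own promoter element (8628273 to 8631989) scored 1.99 in WT and 2.07 in R320*, and an enhancer inside the gene (8530904 to 8534315) 1.91 in both. The strongest contact was not local. It was with a promoter at NDEL1, a dynein regulator gene (8410482 to 8411215, 63.0 kb downstream), which scored 2.33 and 2.51, and an enhancer at NDEL1 (8417827 to 8421997) scored 1.91 and 2.17.

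Of the 23 shared connections of MYH10, 14 were higher in R320* and 9 lower, with a median difference of 0.07 (SD 0.21 over connections). Same-chromosome connections of the whole table had a median of 0.04 and were higher in 59.1%. The 3 largest upward differences lay in 1 stretch, from ALOXE3 to VAMP2 (8105913 to 8168327), 306 to 367 kb downstream. The stretch was picked out after its values were seen, and its elements are neighbours, not separate observations. An ALOXE3 enhancer scored 1.24 in WT and 1.72 in R320*, the AC129492.1 promoter 1.43 and 1.93, and an enhancer near VAMP2, a vesicle fusion gene, 1.64 and 2.08. In the same stretch the HES7 promoter scored 1.56 and 1.42, and an enhancer of AC129492.1 (1.40) was in WT only. The largest downward difference was at an enhancer near PFAS, with 1.896 and 1.501. Differences of at least 0.25 numbered 5 upward and 1 downward.

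Contacts of MYH10 RNA listed in R320* only lay mostly in 1 place, with 6 of 9 there. From AURKB, a mitotic kinase gene, to ODF4 (8197487 to 8346641), MYH10 RNA had 5 connections in WT and 10 in R320*, with 4 shared. The limits of this stretch were set after the values were seen, and it begins and ends at contacts in R320* only. That choice favours R320* in the count, and the elements are neighbours, not separate observations. The promoters of AURKB (1.53), SLC25A35 (1.504) and RANGRF (1.26) were in R320* only, all below the median of 1.73 for listed R320* scores. On the other side, MYH10 RNA met a promoter near CCDC42 in WT only (1.73), 115 kb upstream, and the promoters of CFAP52 (1.39) and SCO1 (1.43) in R320* only, the latter 2065 kb away.

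A feature of MYH10 that its number does not show is that its 37 elements met no other RNA in either genotype. Among all elements 29.3% met a single RNA, and of 2393 RNAs with at least 10 connections 3 had no element that another RNA met. All 32 elements of the table within 500 kb of MYH10 were met by MYH10 RNA. The nearest gene with a listed RNA and a RefSeq position was ALOX12-AS1, 1462 kb away. The table lists only elements with a contact, so elements that no RNA met cannot be counted. For MYH10 no RNA of like pattern could be named.

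MYH9 (ENSG00000100345.21, chromosome 22, 36281280 to 36387967) met 21 elements in WT and 20 in R320*. Its strongest was with an enhancer 3.48 kb beyond the gene's end (36277442 to 36277803), at 2.49 and 2.51. An enhancer near FO393418.1, 7.71 kb upstream of the start, scored 2.32 and 2.26, and the enhancer inside the gene (36354738 to 36359235) 2.02 and 2.05. A promoter element inside the gene (36328649 to 36335049) scored 1.80 in both genotypes.

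Of the 20 shared connections of MYH9, 16 were higher in R320*, with a median difference of 0.07 (SD 0.13). Of all shared same-chromosome connections 59.1% were higher. The 4 upward differences of at least 0.25 were at contacts whose WT scores lay near the minimum. The APOL4 promoter was higher by 0.28, at 1.48 in R320*, and an APOL4 enhancer scored 1.21 and 1.48; APOL4 belongs to the apolipoprotein L cluster beside MYH9. The others were enhancers near FO393418.1 (1.22 and 1.47) and AL022313.2 (1.27 and 1.53). A contact lower by as much from there would not be listed. The largest downward difference was at a FOXRED2 promoter, with 1.47 and 1.26, and the 1 connection in WT only was an enhancer near APOL4 at 1.37. RBFOX2, a splicing factor gene 252 kb away, had the most similar contacts, with 15 elements in common (71.4% of those of MYH9, 31.3% of its own, Jaccard index 0.28). The next was DTX2P1-UPK3BP1-PMS2P11 with 4 elements (0.02), an RNA of chromosome 7 listed in WT only.

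**Figure D3:**
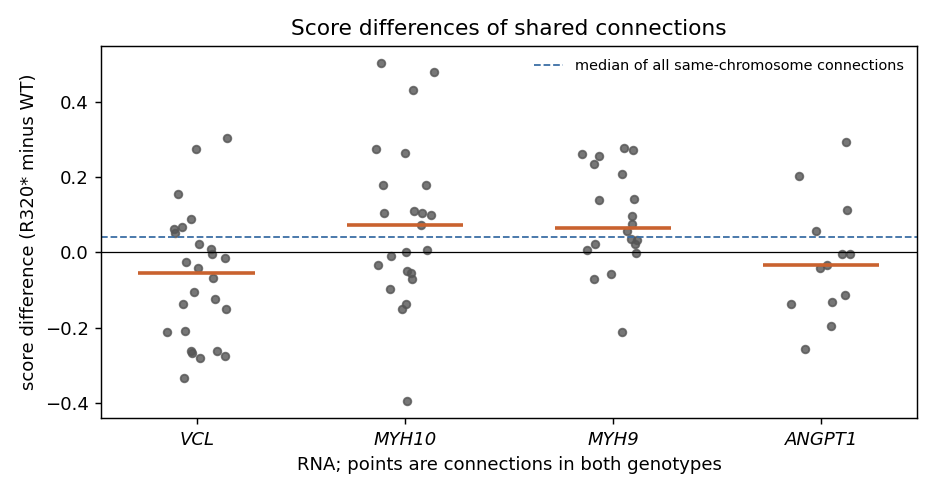
Score difference, R320* minus WT (vertical axis), of each connection listed in both genotypes, for VCL (26), MYH10 (23), MYH9 (20) and ANGPT1 (13); orange bars are medians, the dashed line is the median of 0.04 over all shared same-chromosome connections, and the sideways spread of points is only for legibility. The medians of VCL and ANGPT1 lie below 0, at -0.06 and -0.03, and those of MYH10 and MYH9 above, at 0.07 and 0.07.

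ANGPT1 (ENSG00000154188.10, chromosome 8, 107249482 to 107497918) encodes angiopoietin-1, a ligand that megakaryocytes and stromal cells secrete for the endothelial receptor TEK. It met 14 elements in WT, and 13 of them again in R320*. The strongest, with an enhancer of AC091010.1 7.30 kb beyond the gene (107505217 to 107505610), scored 2.45 and 2.26. The promoter element at the gene's high-coordinate end (107496942 to 107497449) scored 2.03 and 1.91, and an enhancer near AP000428.2 (107117900 to 107118491) 2.03 and 2.09. Of the 13, 9 were lower in R320* and 4 higher, with a median of -0.03 (SD 0.16), while 59.1% of all shared same-chromosome connections were higher. The largest upward difference was at another AP000428.2 enhancer, with 1.67 and 1.97, and the largest downward one at an AC091010.1 enhancer, with 1.74 and 1.48. The single WT-only contact was an EIF3E enhancer, at 1.21.

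Among the 1765 RNAs with at least 10 shared connections, 95% had a median difference between -0.09 and 0.19. VCL, at -0.06, had 139 RNAs below it, ANGPT1, at -0.03, 232, MYH9 1122 and MYH10 1198. All 4 thus lay inside the range of most RNAs. The RNAs most like ANGPT1 were EIF3E with 7 elements in common (50.0% of those of ANGPT1 and 15.2% of its own, Jaccard index 0.13) and ZFPM2 with 5 (35.7% and 3.62%, 0.03). Of the 14 elements of ANGPT1, 12 met another RNA in WT and 5 in R320*. The same share was not computed over all elements. Of all 33948 elements, 30046 met any RNA in WT and 29873 in R320*. Many of the 14 are neighbours, so they are not separate observations, and the difference was not tested.

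Which contacts of VCL, MYH9, MYH10 and ANGPT1 were shared followed their distance from the gene, as in the whole table. All 8 contacts inside the genes were in both genotypes, as were 37 of 38 within 100 kb, 34 of 57 from 100 kb to 1 Mb and 3 of 10 beyond. For all RNAs listed in both genotypes the shares were 99.2%, 93.8%, 68.3% and 28.8%. The median WT score of the shared ones was 2.00 inside the genes, 1.84 up to 100 kb, 1.57 up to 1 Mb and 1.36 beyond. The 31 connections of these RNAs in a single genotype had scores from 1.21 to 1.75, with a median of 1.36. None of their connections with a score of at least 2 was in 1 genotype only, over 20 in WT and 18 in R320*, beside 95.4% of 19168 and 93.5% of 21907 in both genotypes over all such RNAs.

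ETV6 (ENSG00000139083.10, chromosome 12, 11649674 to 11895377), an ETS-family repressor, was listed at 25 elements in WT and at 0 in R320*. Its scores in WT ran from 1.23 to 2.12 with a median of 1.52. The highest were with enhancers near BCL2L14, 99.5 kb (2.12) and 115 kb (1.86) downstream, and with a promoter at DDX11, 19177 kb away (1.86). The promoter element that holds the ETV6 sequence above scored 1.37 and an enhancer inside the gene 1.83. Further contacts lay at the promoter of CDKN1B (1.52), the p27 cell cycle inhibitor gene, of YBX3 (1.52) and of TAS2R14 (1.65). RNAs with a similar number of connections were in 1 genotype only in 21.5% of cases. Of all same-chromosome WT connections with a score of at least 1.5, 78.7% were also in R320*.

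Of the 25 elements that ETV6 RNA met, 12 met another RNA in WT and 11 in R320*, while 10 met no RNA but ETV6 in either genotype. LRP6 RNA, from a Wnt co-receptor gene 221 kb away, met 11 of them, 10 in WT and 7 in R320*, and had 18 connections in WT and 20 in R320* overall. At the 6 shared ones 3 scores were higher in R320* and 3 lower, with a median difference of 0.02. At the ETV6 promoter element LRP6 RNA scored 1.91 and 1.76. An enhancer inside ETV6 (11661580 to 11662075) is not among the 25, since ETV6 RNA was not listed there. LRP6 RNA scored 1.56 and 2.04 at it. SINHCAF RNA met the DDX11 pair in both genotypes. ATF7IP RNA, from 2470 kb away, met 3 of the 25 elements in R320* only. By contacted elements LRP6 was the RNA most like ETV6 (Jaccard index 0.26; 44.0% of the elements of ETV6 and 39.3% of its own), followed by ATF7IP (0.08).

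Chromosome 12 as a whole differed from the others in that way. Of its 132 RNAs, 70 (53.0%) appeared in WT alone and 3 in R320* alone, against 8.11% in WT only over the other chromosomes. Same-chromosome connections on chromosome 12 numbered 3485 in WT and 1636 in R320*, and 1859 and 1598 for RNAs listed in both genotypes. Chromosome X, with 10 RNAs, had 50.0% in WT only. The part of this in the listing of ETV6 was not tested.

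**Figure D4:**
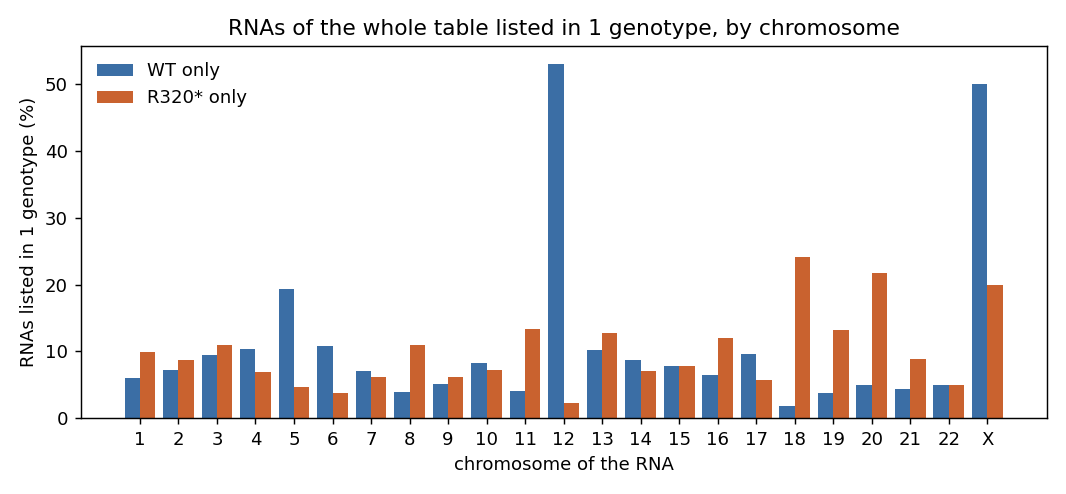
Percent of the RNAs of each chromosome (horizontal axis) that are listed in WT only (blue) or in R320* only (orange), over all RNAs of the table with a chromosome. Chromosome 12, which carries ETV6, has 53.0% of its RNAs in WT only; chromosomes 10, 5 and 7, which carry ITGB1, FYB1 and CD36, have 8.33%, 19.3% and 7.08%.

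ITGB1 (ENSG00000150093.19, chromosome 10, 32900318 to 32958230), the beta-1 subunit of most matrix-binding integrins, had 5 connections, all in WT. Its scores were 2.20 at an enhancer inside the gene (32937928 to 32950840), 1.32 at its promoter element (32954151 to 32960841), 2.04 at the EPC1 promoter, 1.83 at a CCDC7 enhancer and 1.71 at a CCDC7 promoter. VCL, on the same chromosome, was listed in both genotypes. PARD3 RNA, from a polarity gene 1151 kb away, met both ITGB1 elements in both genotypes, scoring 1.57 and 1.56 at the enhancer and 1.25 and 1.79 at the promoter. NRP1, the neuropilin gene 219 kb from ITGB1, was likewise in WT only, with 112 connections. Of RNAs with a number like that of ITGB1, 37.5% were in a single genotype.

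FYB1 (ENSG00000082074.18, chromosome 5, 39105252 to 39274528), an adaptor that passes receptor signals to integrins in T cells and platelets, had 2 connections, in WT. They were with an enhancer inside the gene (39113188 to 39120577, score 1.52) and an AC008964.1 enhancer 1.70 kb beyond its end (2.13). RICTOR, 30.9 kb away, had 38 connections in WT and 39 in R320*. CD36 (ENSG00000135218.19, chromosome 7, 80602207 to 80679274), a receptor for thrombospondin and fatty acids, had 2, in R320*. An enhancer 173 kb upstream of the RefSeq gene, which the table types as local (80427524 to 80428890), scored 2.37, and an enhancer 1.85 kb beyond its end 2.39. The nearest listed neighbours of CD36 on either side, MAGI2 (1149 kb away) and SEMA3E (2684 kb away), were also in R320* only, with 10 and 32 connections. Beyond MAGI2, the RNAs of PHTF2 (31 and 36), RSBN1L (30 and 32) and PTPN12 (39 and 24) were in both genotypes. DTX2P1-UPK3BP1-PMS2P11, further on, was in WT only (174). With 2 connections, 45.9% of RNAs of similar number were in 1 genotype only.

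Seen from the DNA, the 35 elements nearest the 8 genes received 58 connections in WT and 48 in R320*, with 30 of 76 in both (39.5%). Across the whole table, 45.2% of connections were listed in both genotypes. For these elements the share in R320* was 45.3% (exact interval 35.6 to 55.2%), against 50.8% in the whole table. The genes' own RNAs made 20 of the 76. Contacts from other chromosomes numbered 11 in WT and 4 in R320*, and 0 were in both; the table as a whole lists 12800 and 11600, with 2524 in both.

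VCL elements received 16 connections in each genotype, 12 shared. Its promoter element met VCL and ADK RNA in both genotypes and the nuclear RNA NEAT1 in WT only (1.41). Among the RNAs it met in R320* only were MCU (1.46) and KAT6B (1.58), both from chromosome 10. At the enhancer inside VCL (74007893 to 74014110) NEAT1 was again in WT only (1.29), while ADK (1.95 and 1.93) and KAT6B (1.80 and 1.53) were in both. LMBR1 RNA, from another chromosome, met a further VCL enhancer in WT only, at 2.61.

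FYB1 elements were met by 14 RNAs. At the enhancer that met FYB1 RNA, 7 RNAs were listed in WT and 5 of them in R320*. WDR70 (1.44 and 1.52), NIPBL (1.42 and 1.49) and AC106744.1 (1.25 and 1.32) were slightly higher in R320*, and LIFR (1.67 and 1.30) and RICTOR (1.74 and 1.45) lower. ITGB1 elements received 4 connections in WT and 5 in R320*. The promoter element met CCNY (1.42) and MLLT10 (1.26) RNA, from the same chromosome, in R320* only.

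ANGPT1 elements received 13 connections in WT and 6 in R320*, 4 shared. The share in R320* was 31.6% (exact interval 12.6 to 56.6%), against 50.8% in the whole table. Contacts from other chromosomes made up 5 of the 13 and 1 of the 6. The promoter element met 5 RNAs in WT and 1, its own, in R320*. EIF3E RNA (2.00 in WT) was the strongest of those not listed in R320*, though at the enhancer inside ANGPT1 (107286899 to 107290132) it was in both, at 1.80 and 1.83. The others were AC099520.1 (1.70), ZFPM2 (1.43) and LINC00534 (1.21). CD36 elements received 1 connection in WT and 5 in R320*, a share of 83.3% (exact interval 35.9 to 99.6%). At an enhancer inside CD36 (80645454 to 80647084) PTPN12 RNA was in WT only (2.01), and SEMA3E (1.63) and LINC02476 (1.23) in R320* only. MYH9 elements received 5 and 3, from MYH9 and RBFOX2 RNA; both RBFOX2 contacts (1.43 and 1.29) were in WT only. ETV6 elements received 6 and 3, from ETV6, LRP6 and MIR548XHG RNA, and the pair of MYH10 elements was met by MYH10 RNA alone, as above. The exact intervals of the R320* share were 8.52 to 75.5% for MYH9 elements and 7.49 to 70.1% for ETV6 elements. Like those of ANGPT1 and CD36, they include the 50.8% of the whole table.

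**Figure D5:**
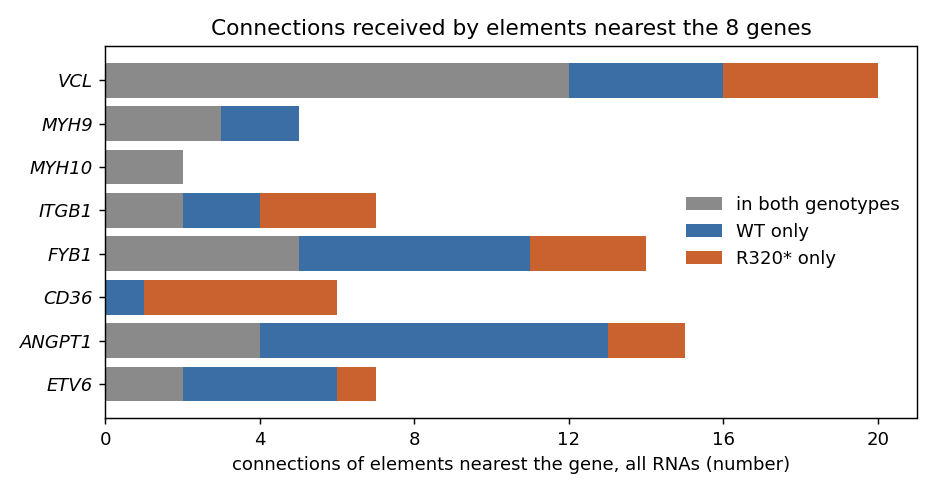
Number of connections from any RNA (horizontal axis) received by the elements nearest each of the 8 genes, split into those in both genotypes, in WT only and in R320* only. ANGPT1 elements have 9 connections in WT only and 2 in R320* only, CD36 elements 1 and 5, and VCL elements 4 and 4. The numbers are small: for all 3 genes the exact interval of the share in R320* includes the 50.8% of the whole table.

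Other genes of the same pathways showed no common direction in number. Of 41 focal adhesion and integrin genes 16 were listed, members included: 6 had more connections in R320*, 6 fewer and 2 as many, with a median log2 ratio of 0.00, and the other two are ITGB1 and FYB1. Of the 2137 RNAs that both genotypes listed, 1244 made more connections in R320*, 719 fewer and 174 as many, with a median of 0.09. The small GTPases RAP1A (31 and 47) and RAP1B (42 and 19), switches of integrin activation, had opposite orders, and RAP1B lies on chromosome 12. The actin-elongating factor gene EVL had 14 and 21. Of 28 actomyosin genes 14 were listed, 8 with more, 5 with fewer and ARHGAP10 in WT only, with a median of 0.19. PPP1R12A (33 and 11), the myosin phosphatase targeting subunit and also on chromosome 12, had the largest ratio, followed by the kinase gene ROCK1 (10 and 17) and PPP1R12B (52 and 75).

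Of 18 ETS factor genes, ELK4 (16 and 29), ELF1 (25 and 28) and ELF2 (48 and 41) were listed besides ETV6. Of 13 genes of angiopoietins, thrombospondins, vascular and platelet growth factors and their receptors, ANGPT1, CD36 and VEGFA were listed. VEGFA, a growth factor for endothelial cells, had 36 connections in WT and 0 in R320*; neither TEK nor the thrombospondin genes THBS1 and THBS2 were listed. Of the erythroid genes, 6 had more connections in R320* and 1 fewer, with a median of 0.35.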

How the data were processed

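The submitters' processing notes name cutadapt 1.12, BWA, bedtools and hg38. The authors deposited 1 table of contact scores, with 1 score per connection for WT and 1 for R320*, and a column of their difference. Each score was read as pooled from the 2 libraries of its genotype, which the labels do not state. The sources used here do not state how the score was computed or normalized. Every deposited score is 0 or above 1.2, and 0 connections are at 0 in both genotypes.

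Connections were counted per RNA, with the column named R read as R320*, the 1 genotype besides WT, and score differences were taken where both genotypes listed a connection (Python 3.11.15, pandas 2.3.3, scipy 1.17.1). Because the table gives no score per library, the design's case without a test applied: numbers, medians and exact binomial intervals (95%) that cover counting error only. Gene positions came from RefSeq GRCh38.p14 by symbol, with 2497 of 2637 RNAs matched, 70 through an older symbol. Distance is the gap between gene and element; element starts count from 1. RefSeq gave no promoter window for ANGPT1, so its sides are given by coordinate.

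All 8 members were named. For each member the rule took the 3 highest scores and the largest difference in each direction, for those with at least 10 connections the 2 RNAs with the highest Jaccard index, for each list up to 3 other genes by log2 ratio at a mean of at least 10 connections, and per gene the 2 elements with most RNAs. Other connections were named after their values were seen. The members and gene lists were chosen with earlier results of these data known. The counting was tested on simulated data.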

Additional observations from a re-analysis of the deposited data

How the results depend on the processing

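Of 33 alternative values for the 8 RNAs together and their elements, 29 moved by less than the exact interval of the value reported (for score differences, by less than 1 SD over connections). The share of the members' connections listed in both genotypes, 55.8%, was 46.7% of 30 at a minimum score of 2 and 41.7% of 12 with neighbouring contacts within 1 Mb merged. It was 67.2% without ETV6 and 72.6% over the 4 RNAs listed in both genotypes, both chosen after seeing the data. The share of listings in R320*, 42.4%, ranged from 40.0% (the second of the 2 runs of elements through the chromosomes that the table holds) to 48.7% (the 4 RNAs). Centred on the median of all shared connections, the members' median score difference went from 0.0057 to -0.034. Per gene, 59 of 61 alternatives stayed inside the interval. Those of ETV6, ITGB1, FYB1 and CD36 could not leave it, because each is listed in 1 genotype only. Leaving out contacts from other chromosomes could not change any value of the 8 RNAs, which have no such contact. These alternatives therefore say nothing about stability. MYH10 was at 80.0% of 5 listings at a minimum score of 2 and 66.7% of 3 after merging. FYB1 and CD36 have no promoter contact, and CD36 has none in the second run of elements, so these gave no value. Small numbers limit ITGB1, FYB1 and CD36, and depth is unknown. No paired analysis was possible because the deposited table gives no score per library.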
